A study of Mus musculus with 4 samples.

Results

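The guanylate-binding proteins (GBPs) and the immunity-related GTPases (IRGs) are interferon-inducible GTPases of cell-autonomous immunity, and their transcripts were followed in mouse T helper 2 (Th2) cells given dopamine. The members were taken by name from the deposited gene table. All 10 were present among its 26207 genes: the GBP genes Gbp2, Gbp3, Gbp4, Gbp5, Gbp7 and Gbp9, and the IRG genes Irgm1, Irgm2, Igtp and Iigp1. The study made 4 bulk RNA-seq libraries from Th2 cells of mouse spleen, 2 from cells given phosphate-buffered saline (PBS) and 2 from cells given 10 µM dopamine. Neither a strain, genotype or age nor the length of the dopamine exposure is given in the sources used here. Th2 cells are the helper T cells of allergic and anti-worm immunity. The libraries are called A and B within each group. The table tied a library to its group only. Its column names carry the number 2 for library A and 3 for library B of each group. Whether these numbers pair the libraries is not known, so the letters are not read as pairs.

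As background, interferon-gamma binds its receptor and turns on genes whose promoters hold a gamma-activated site (GAS) or an interferon-stimulated response element (ISRE), the latter bound by interferon-regulatory factors such as IRF1. GBPs then assemble on pathogen membranes and on the vacuoles of intracellular parasites, where they help to expose the contents to the cytosol and to inflammasomes. IRGs work in pairs of roles. Effector IRGs such as Iigp1 coat the vacuole, and the regulatory Irgm proteins stay on the cell's own membranes and keep effectors there inactive. In CD4 T cells, loss of Irgm1 is known to make interferon-gamma harmful to the expanding cells.

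Promoter stretches are printed for the members whose transcripts are compared below. Whether the letters bear on the direction of change was not tested. RefSeq promoter windows (build GRCm38.p6, from 250 bases before to 50 after a gene's start) matched 7 of the 10 members. Gbp4, Gbp9 and Iigp1 are not printed. Capitals mark matches to GAS (TTCNNNGAA) or to ISRE (GAAA, any 2 bases, GAAA), each searched on both strands, where matches may overlap. The stretches come from the plus strand at chr3:142620543-142620613 for Gbp2, chr3:142559924-142560025 for Gbp3, chr3:142496759-142496899 for Gbp5, chr3:142530216-142530335 for Gbp7, chr11:58199436-58199555 for Igtp and chr11:58214857-58214976 for Irgm2. The short stretch of Irgm1 is from the minus strand at chr11:48871435-48871450, and all 16 of its bases lie in an annotated exon. So do 12 of the 71 bases of Gbp2. The stretches of Gbp5 and Irgm2 lie inside the gene bounds given below but outside annotated GBP and IRG exons.
Gbp2: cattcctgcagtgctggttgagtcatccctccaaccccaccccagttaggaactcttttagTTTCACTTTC
Gbp3: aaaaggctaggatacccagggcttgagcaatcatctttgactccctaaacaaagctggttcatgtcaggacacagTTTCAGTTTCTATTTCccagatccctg
Gbp5: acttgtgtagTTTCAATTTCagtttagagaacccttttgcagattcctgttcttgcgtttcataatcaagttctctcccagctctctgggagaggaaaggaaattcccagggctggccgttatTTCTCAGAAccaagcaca
Gbp7: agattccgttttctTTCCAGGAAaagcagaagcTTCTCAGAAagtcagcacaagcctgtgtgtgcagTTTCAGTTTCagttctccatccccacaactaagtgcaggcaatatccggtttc
Igtp: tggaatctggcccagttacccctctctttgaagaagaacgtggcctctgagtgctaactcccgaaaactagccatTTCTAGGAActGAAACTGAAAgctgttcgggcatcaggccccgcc
Irgm2: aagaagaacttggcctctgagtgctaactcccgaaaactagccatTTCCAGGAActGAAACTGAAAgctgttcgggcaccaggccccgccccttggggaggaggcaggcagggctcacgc
Irgm1: GAAATAGAAACCGAAA

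The 7 members have 8 windows, since Gbp3 has 2, and the window behind each printed stretch held ISRE letters. The stretches were cut to take in matches near the gene's start, so only full windows compare with the shares below. The other window of Gbp3 held neither motif. Of all 32544 distinct windows of that length in the table, 3.45% held ISRE letters. GAS letters were in the windows of Gbp5, Gbp7, Igtp and Irgm2, against 8.33% of all windows, and 0.455% of all windows held both motifs. Gbp2, Gbp3 and Irgm1 had ISRE letters and no match to these GAS letters in the window. In Igtp and Irgm2 the GAS is followed after 2 bases by the ISRE. This joined form was searched because it was seen in these windows, so its count is a description. It was in 5 of the 32544 windows, and all 5 belong to IRG genes: Igtp, Irgm2, Tgtp1, Tgtp2 and Gm12185. The printed stretches of Igtp and Irgm2 are close copies. Laid over each other at an offset of 30 bases, they have the same letter at 87 of 90 positions. A match gives letters only and says nothing of which factor was bound in these cells.

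Values are the authors' normalized read counts, that is read counts divided by 1 size factor per library, given as mean ± SD of n = 2 libraries a group. A log2 fold change is the dopamine mean less the PBS mean of log2(value + 1), with limma's standard error (SE) and its p-value adjusted by Benjamini-Hochberg over all 26207 genes, and 0.05 was the threshold. The libraries held 5717408 to 14167357 reads assigned to genes, and PBS A was the shallowest. The members had 349 to 34826 reads in a library. Separate cultures or animals are not named in the labels, so each p-value covers the spread among these 4 libraries alone, which may be technical. In bulk RNA, fewer cells of a type and less RNA per cell cannot be told apart. In a check of the label, 8 helper T cell markers summed to 23848 to 25269 normalized counts with PBS and to 26926 to 27561 with dopamine, most of it from T cell receptor, Cd3 and Cd4 genes. The Th2 markers were a small part of that sum. Gata3, the Th2 master regulator, was at 237 ± 8.70 and 224 ± 24.1 (adjusted p = 0.69). Il4 rose from 178 and 151 to 784 and 723, by 2.19 on the log2 scale (adjusted p = 3.82e-20), while the receptor gene Trac fell by 0.27 (adjusted p = 8.38e-04).

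Members are abundant genes, and abundant genes as a whole sat higher with dopamine in the authors' scaling. The 4149 genes with a mean of at least 500, a level that every member reached, had a median log2 fold change of 0.211. A member near that value moved as the typical abundant gene did. Rescaling the libraries so that genes averaging 100 or more centre on no change took the median of those genes from 0.20 to 0.0026. The median over all genes was -0.081 before it and -0.256 after. Calls of members and list counts that turn on this choice are given both ways.

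The family did not move as a block. Of the 10 members, 7 rose with dopamine, 2 fell and 1 did not pass the threshold. Across all 26207 genes 14.3% rose and 7% fell, and across the 4149 abundant genes 48.7% rose and 8.36% fell, so 7 of 10 rising and 2 of 10 falling are read against those shares. In either direction 21.3% of all genes and 57% of abundant genes passed. The dopamine libraries lay outside the PBS range for 9 of the 10 members, above it for 7 and below it for 2. That compares with 58.9% of all genes (28.5% above, 30.4% below) and 82.3% of abundant genes (67.8% above, 14.6% below). Gbp2 had the highest log2 fold change of the members and Gbp7 the lowest. The median log2 fold change of the members was 0.22, close to that of abundant genes. The 95% interval of the log2 fold change lay above the abundant-gene median of 0.211 for Gbp2, Gbp4 and Iigp1 and below it for Gbp7, Gbp9 and Irgm2, and it held that median for Gbp3, Gbp5, Igtp and Irgm1.

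**Figure D1:**
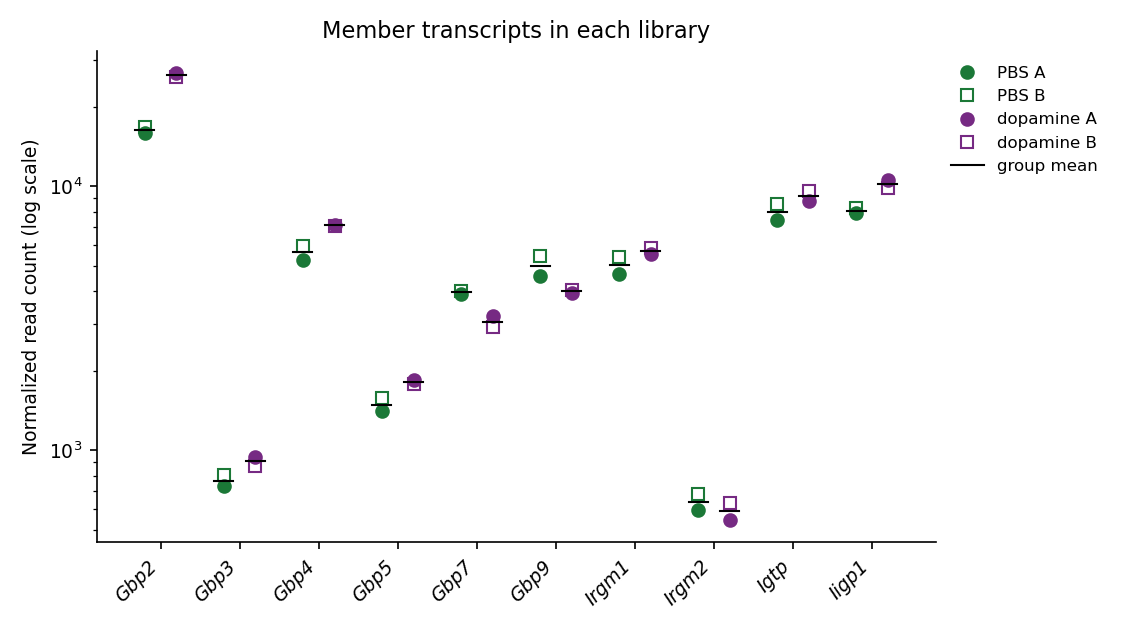
Normalized read count (log scale) of each member in the libraries of both groups, with black lines at the mean of each group of 2 libraries. Both dopamine libraries lie above both PBS libraries for 7 members and below both for Gbp7 and Gbp9, and the groups overlap for Irgm2.

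The GBP genes of chromosome 3 lie side by side, and 1 of the 4 members there moved against its neighbours. Gbp2, a GBP that carries a lipid anchor and is recruited to parasite vacuoles and bacteria, lies at 142620602 to 142638008 (GENCODE M21, mm10, as for all gene positions here). It was at 15958 in PBS A, 16789 in PBS B, 26866 in dopamine A and 26026 in dopamine B. Both dopamine libraries were far above both PBS libraries. The means were 16373 ± 588 and 26446 ± 594, or 0.69 higher on the log2 scale (SE 0.05, adjusted p = 6.43e-15). With a mean of 21410 over the 4 libraries it ranked 32 among all genes, so a large pool of transcript grew by 61.5%. The rise was 0.50 after rescaling on abundant genes and passed the threshold under all 14 alternatives tried.

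Gbp5, another lipid-anchored GBP, linked to inflammasome activation, lies at 142493978 to 142522344. It was at 1408 and 1576 with PBS and at 1851 and 1779 with dopamine. The groups did not overlap, and the log2 fold change was 0.28 (SE 0.08, adjusted p = 0.00464). That call ended after rescaling (0.09, adjusted p = 0.378), with upper-quartile scaling in edgeR (0.09), without PBS A (0.20) and without dopamine A (0.26, adjusted p = 0.0564). Gbp3, at 142560026 to 142573209, is found with the other GBPs at parasite vacuoles. It went from 730 and 804 with PBS to 947 and 874 with dopamine, which is 0.25 higher on the log2 scale (SE 0.09, adjusted p = 0.0397). It passed narrowly and was past the threshold under only 3 of the 14 alternatives, with 0.05 (adjusted p = 0.69) after rescaling.

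Gbp7 lies between Gbp5 and Gbp3, at 142530342 to 142550149, and is known to bind parts of the phagocyte oxidase and the autophagy machinery. It went the other way. It was at 3919 and 4024 with PBS and at 3227 and 2922 with dopamine, so both dopamine libraries were below both PBS libraries. The log2 fold change was -0.37 (SE 0.07, adjusted p = 2.31e-05), with -0.57 after rescaling, and the fall passed under all 14 alternatives. Gbp7, which fell, and Gbp5, which rose in the authors' scaling, both carry GAS and ISRE letters in the stretches printed above. Of its 50-base stretches, 12.7% also occur in transcripts of another annotated gene, mostly the predicted gene Gm43802, so some of its reads could have been left out or shared.

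On chromosome 5 the neighbours Gbp4 and Gbp9 parted in the same way. Gbp4, at 105115767 to 105139586, was at 5274 and 5971 with PBS and at 7166 and 7095 with dopamine. Both dopamine libraries were higher, by 0.35 on the log2 scale (SE 0.06, adjusted p = 2.18e-05). That rise passed under all 14 alternatives and came to 0.15 (adjusted p = 0.0398) after rescaling. Gbp9, at 105077630 to 105139539 on the same strand, was at 4581 and 5451 with PBS and at 3942 and 4067 with dopamine. Its PBS libraries stood apart by a ratio of 1.19, the widest of the members, yet both lay above the dopamine libraries. The log2 fold change was -0.32 (SE 0.07, adjusted p = 2.80e-04), with -0.52 after rescaling, and the call ended without PBS B (-0.19, adjusted p = 0.118). The gene models of Gbp4 and Gbp9 overlap in position and share 60 exon bases, so reads there cannot be assigned to either.

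Of the 4 IRG members, the effector Iigp1 was the one whose 95% interval (0.22 to 0.45) lay above the abundant-gene median of 0.211. The effectors Tgtp1, Tgtp2 and Gm12250, outside the members, fell, as given below. Gm4841, another IRG gene of chromosome 18, rose by 0.56 on the log2 scale (adjusted p = 2.53e-04). The abundant IRG gene Ifi47 did not pass the threshold (-0.02, adjusted p = 0.883). IRG genes outside the members thus went both ways, and Iigp1 does not stand for effectors as a set. Iigp1, on chromosome 18, encodes an effector IRG that coats parasite vacuoles. It was at 7897 and 8292 with PBS and at 10588 and 9855 with dopamine. The groups were well apart, by 0.34 on the log2 scale (SE 0.06, adjusted p = 9.84e-06). After rescaling it was 0.14 (adjusted p = 0.046), and the call ended with upper-quartile scaling in edgeR (0.15, adjusted p = 0.0618).

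The regulatory Irgm genes stayed close to the abundant-gene median or below it. Igtp, also called Irgm3, lies on chromosome 11 at 58199556 to 58207591 and was at 7471 and 8594 with PBS and at 8829 and 9623 with dopamine. The highest PBS library came close to the lowest dopamine library. The log2 fold change was 0.20 (SE 0.06, adjusted p = 0.0129), a call that ended after rescaling (0.0066, adjusted p = 0.942), in edgeR with TMM (0.09), without PBS A (0.10) and without dopamine B (0.14), and under 6 of the 14 alternatives in all. Irgm1, at 48861968 to 48871683, was at 4671 and 5419 with PBS and at 5567 and 5853 with dopamine. Its log2 fold change of 0.18 (SE 0.06, adjusted p = 0.0363) turned to -0.01 after rescaling and with upper-quartile scaling in edgeR, and without PBS A it was 0.07 (adjusted p = 0.614). It passed as higher under 4 of the 14 alternatives. For Irgm1 the PBS libraries differed by a ratio of 1.16, more than the ratio of 1.13 between the group means. Irgm2, at 58199618 to 58222782, was at 593 and 681 with PBS and at 545 and 632 with dopamine, so the groups overlapped. Its log2 fold change of -0.11 (95% interval -0.31 to 0.09, adjusted p = 0.452) did not pass the threshold. With rescaling it passed as lower (-0.31, adjusted p = 0.0112), as it did in edgeR with TMM (-0.24, adjusted p = 0.0393).

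**Figure D2:**
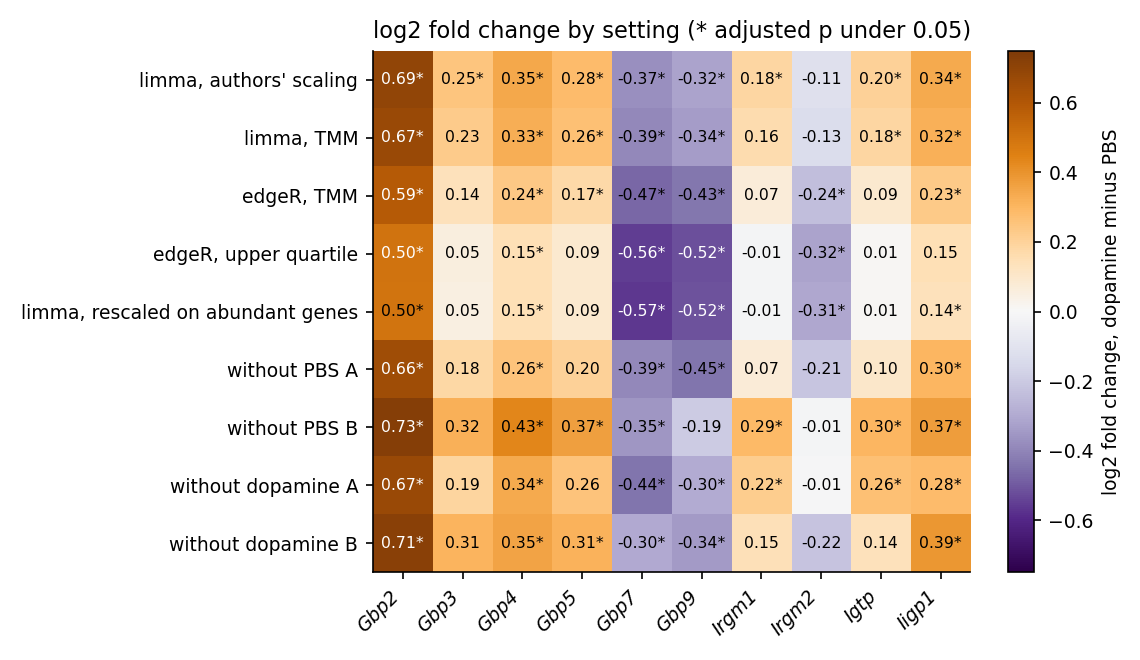
Log2 fold change of each member (dopamine minus PBS) under the reported fit, 4 other scalings or tests and without each library, where a star marks an adjusted p under 0.05. Gbp2 and Gbp4 are starred as higher and Gbp7 as lower in every row shown, while Irgm1 goes from 0.18 to -0.01 with the scaling.

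The PBS pair carries part of this uncertainty. All 10 members were higher in PBS B than in PBS A, by a median ratio of 1.13, against 75.4% of abundant genes and a median ratio of 1.04. Between the dopamine libraries 4 of the 10 were higher in dopamine B, against 67.0% of abundant genes. Without PBS A 3 members rose and 2 fell, against 8.21% and 2.91% of all genes (11.1% in either direction). Without PBS B 6 rose and 1 fell, against 12.2% and 4.15% (16.4%). Without dopamine A 5 rose and 2 fell, against 11.1% and 5.3% (16.4%), and without dopamine B 4 and 2, against 8.55% and 3.95% (12.5%). The split between rising and falling members also differed between fits. TMM scaling in limma called 5 higher and 2 lower, against 13.8% and 7.4% of all genes (21.2%), and edgeR with TMM and no filter 6 and 2, against 13.8% and 7.28% (21.1%). EdgeR with TMM and its filter on low counts called 4 and 3, against 18.2% and 15.8% of 15329 genes (34%). With that filter and upper-quartile scaling, edgeR called 2 and 3, against 13.1% and 20.5% (33.7%). Rescaling on abundant genes called 3 and 3, against 6.89% and 12.1% of all genes (19%). With the number in the column names as a replicate block, the members' counts were 7 and 2, against 17.7% and 9.05% (26.7%). In the authors' deposited table, whose DESeq2 test was run on the same 4 libraries, 25.1% of the 12997 genes with an adjusted p passed, 19.6% as higher and 5.53% as lower. That table had Gbp2, Gbp4, Gbp5, Igtp and Iigp1 past 0.05 as higher and Gbp7 and Gbp9 as lower, with Igtp at 0.0497. For Gbp3 (0.109), Irgm1 (0.0978) and Irgm2 (0.562) the authors' deposited table gave adjusted p-values above the threshold.

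Ratios between members within a library do not depend on how libraries are scaled, and they show the parting of neighbours directly. The pairs shown were picked after the values were seen. The log2 ratio of Gbp2 to Gbp7 was 2.03 and 2.06 with PBS and 3.06 and 3.15 with dopamine. The log2 ratio of Gbp5 to Gbp7 was -1.48 and -1.35 with PBS and -0.80 and -0.72 with dopamine. On chromosome 5 the log2 ratio of Gbp4 to Gbp9 was 0.20 and 0.13 with PBS and 0.86 and 0.80 with dopamine. In each of these pairs the dopamine libraries were apart from the PBS libraries by several times the gap within a group.

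The IRG pairs differed from each other. The log2 ratio of Igtp to Irgm1, both regulatory, was 0.68 and 0.67 with PBS and 0.67 and 0.72 with dopamine, so the groups overlapped. For Igtp to Irgm2, whose printed promoter stretches are close copies, it was 3.66 and 3.66 with PBS and 4.02 and 3.93 with dopamine, so the dopamine libraries were higher. A transcript model of Irgm2 begins inside the first exon of Igtp, and the genes share 162 exon bases on the same strand, so reads from that exon could not be told apart. No test was run on these ratios.

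**Figure D3:**
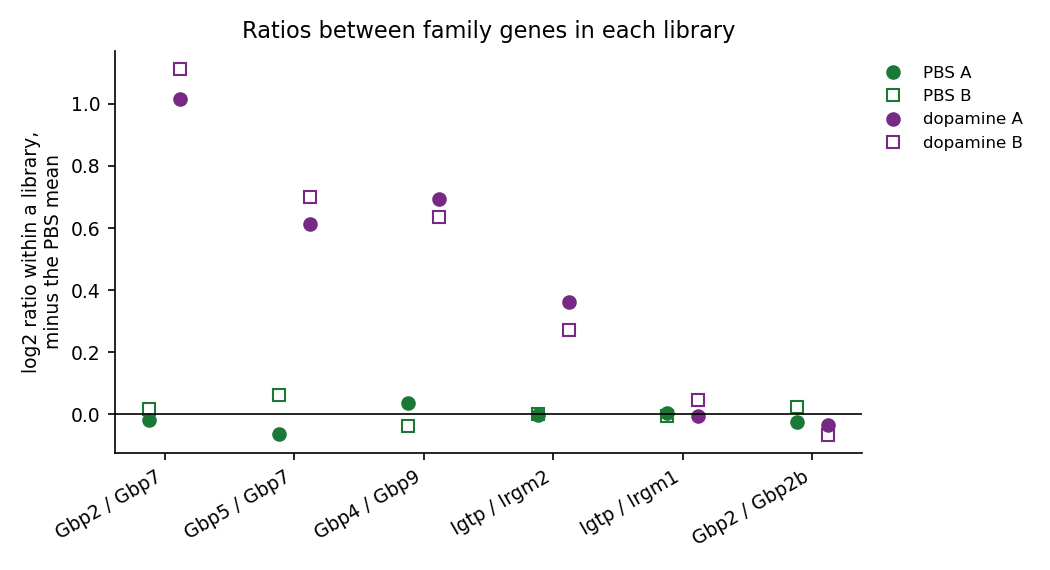
Log2 ratio between genes of the family within each library, minus the mean of the PBS libraries, for 6 pairs. The dopamine points stand about 1 unit above the PBS points for Gbp2 over Gbp7 and lie among or near them for Igtp over Irgm1 and Gbp2 over Gbp2b.

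The make-up of the family therefore shifted towards Gbp2. The members summed to 52504 and 57603 normalized counts with PBS and to 69528 and 68727 with dopamine, or 0.541% and 0.568% of the reads assigned to genes against 0.636% and 0.616%. Gbp2 held 30.4% and 29.1% of the members' total with PBS and 38.6% and 37.9% with dopamine. The share of Gbp7 went from 7.46% and 6.99% to 4.64% and 4.25%, and that of Gbp9 from 8.73% and 9.46% to 5.67% and 5.92%. The shares of Gbp4 (10.2% and 10.3%, group means) and Iigp1 (14.7% and 14.8%) differed between groups by less than the spread between the PBS libraries. For Gbp4 the dopamine libraries lay closer together, at 10.31% and 10.32%. These shares are not adjusted for exon length. Per length, Gbp2 held 42.1% and 40.4% with PBS and 51.3% and 49.8% with dopamine. Gbp4 then held 4.67% and 4.82% with PBS and 4.59% and 4.56% with dopamine, so both dopamine libraries were lower.

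Levels between genes were compared per kilobase of annotated exon. With PBS the order was Gbp2 (6508 ± 234 normalized counts per kilobase), Igtp (3973 ± 393), Iigp1 (1390 ± 48.0), Gbp9 (970 ± 119), Irgm1 (868 ± 91.0), Gbp4 (750 ± 65.8), Gbp7 (707 ± 13.2), Gbp3 (235 ± 16.0), Gbp5 (225 ± 17.9) and Irgm2 (173 ± 16.9). Neighbours in that order whose libraries overlapped were Gbp9 with Irgm1, Gbp4 with Gbp7, and Gbp3 with Gbp5. With dopamine Gbp9 (774 ± 17.1 per kilobase) came after Irgm1 (983 ± 34.9) and Gbp4 (951 ± 6.69), and the rest kept their places. Annotated exons include long alternative ends for some genes, such as the 7494 bases of Gbp4, which lowers their level per kilobase.

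The other GBP and IRG genes, listed apart from the members, also held rising and falling members. Of 5 other GBP genes measured, 1 rose and 3 fell, and of 11 other IRG genes, 1 rose and 3 fell, with medians of -0.27 and -0.23, where the median was 0.211 for abundant genes and -0.081 for all genes. Several of these IRG genes are not abundant. Over all genes 14.3% rose and 7% fell, and over abundant genes 48.7% and 8.36%. After rescaling the counts of these lists were 1 and 3, and 1 and 6, against 6.89% and 12.1% of all genes. Without PBS B they were 1 and 1 in both lists, and without PBS A, dopamine A or dopamine B the other GBP genes gave 1 and 2. Without dopamine A the other IRG genes gave 1 and 2. Gbp2b, next to Gbp2 on chromosome 3, went from 1524 and 1548 with PBS to 2582 and 2555 with dopamine, up by 0.74 on the log2 scale (SE 0.07, adjusted p = 2.56e-11). The log2 ratio of Gbp2 to Gbp2b held at 3.39 and 3.44 with PBS and 3.38 and 3.35 with dopamine. The genes share few 50-base stretches, 1.84% of those of Gbp2b, so few reads could have been counted under either name. On chromosome 5 Gbp11 (-0.57, annotated as a polymorphic pseudogene), Gbp8 (-0.38) and Gbp10 (-0.27) fell with Gbp9. Gbp6 (0.01, adjusted p = 0.94) did not pass. Of the 50-base stretches of Gbp10, 84.1% occur in another gene, so its level and that of Gbp6 are uncertain.

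The IRG genes Tgtp1 and Tgtp2, which encode nearly the same effector, fell by 0.30 and 0.45 on the log2 scale. Tgtp2 was at 3949 and 4179 with PBS and at 2960 and 2974 with dopamine (adjusted p = 3.90e-07). Of the 50-base stretches of Tgtp2, 86.6% occur in another gene, nearly all in Tgtp1, so the split between them is uncertain. Gm12250, which encodes Irgb10, an effector acting on bacteria, fell by 0.21 (adjusted p = 0.0439), and Gm4841 rose by 0.56 (adjusted p = 2.53e-04). The authors' DESeq2 table did not have Gm12250 past the threshold (adjusted p = 0.0809), and GENCODE annotates it as a processed pseudogene. The joined GAS and ISRE letters stood before Tgtp1 and Tgtp2, which fell, and before Igtp, which rose with the abundant genes. Irgm2 and Gm12185 (-0.26, adjusted p = 0.0858), which also carry them, did not pass. Of 7 very large inducible GTPases and Mx proteins, 3 fell and 1 rose, against 7% and 14.3% of all genes. Mx2 (-0.97), Mx1 (-0.42) and Gm1966 (-0.36) fell, and Gm4070 rose (0.61). After rescaling 4 passed, all lower, and the rise of Gm4070 also ended in DESeq2 and without either dopamine library. Without PBS B, without dopamine A and in DESeq2, 2 of the 7 fell.

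**Figure D4:**
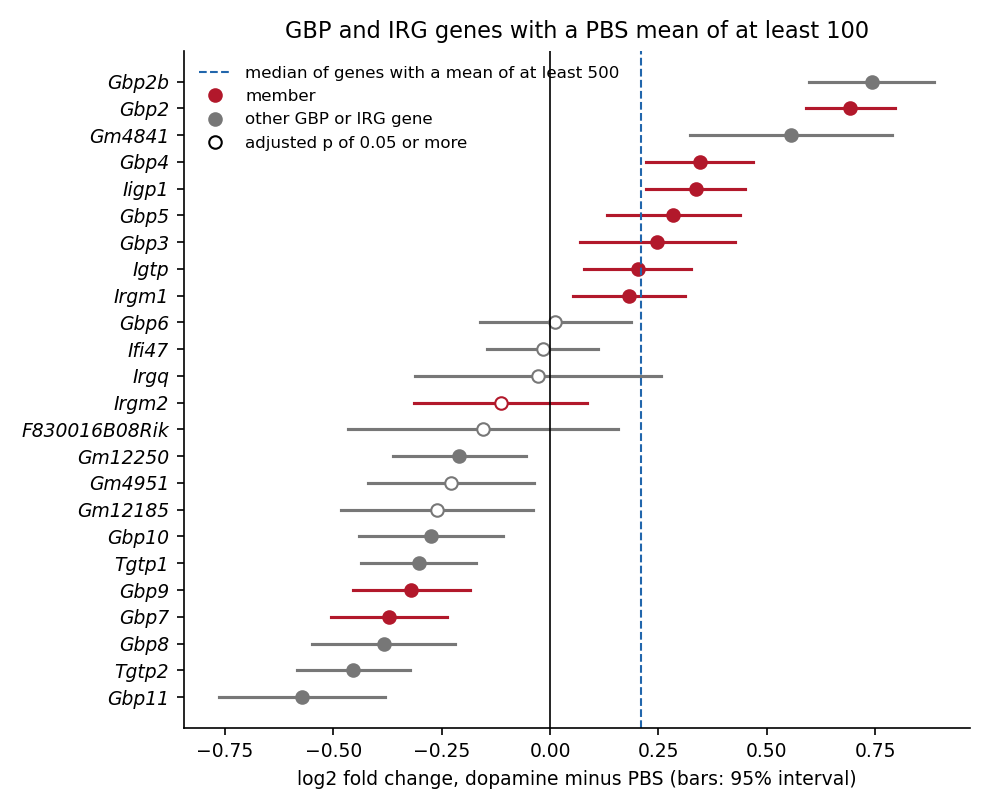
Log2 fold change (dopamine minus PBS) with 95% intervals for the members and the other GBP and IRG genes with a PBS mean of at least 100, where filled points passed the threshold and the dashed line is the abundant-gene median of 0.211. Gbp2b and Gbp2 stand highest, and Gbp7 and Gbp9 sit among the falling genes Gbp8, Tgtp2 and Gbp11.

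The interferon-gamma pathway upstream of these genes also showed both directions. Ifng, the cytokine gene, was at 61.2 and 59.0 with PBS and at 239 and 244 with dopamine, up by 1.99 on the log2 scale (SE 0.16, adjusted p = 9.63e-14). The ligand-binding receptor chain Ifngr1 fell from 1018 and 1125 to 595 and 669 (-0.76, adjusted p = 6.04e-09). The other chain Ifngr2 was at 460 ± 36.0 and 453 ± 33.3 (-0.02, 95% interval -0.23 to 0.19). Irf1, a transcription factor, went from 4741 and 5163 to 5562 and 5791 (0.20, adjusted p = 0.0159), as abundant genes did. Irf8 (1.15) and the feedback inhibitor Socs1 (0.61) rose.

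For the lists that follow, the shares over all genes were 14.3% higher and 7% lower, and 6.89% and 12.1% after rescaling. Of 15 genes of type I interferon signalling 2 rose and 6 fell (8 passed after rescaling, all lower), with a median of -0.22. Without PBS B 2 rose and 3 fell, and without PBS A 7 passed and without dopamine B 5, all lower. Among them Usp18, an inhibitor of the type I receptor, fell by 1.22 on the log2 scale, the transcription factor Irf7 by 1.21 and the RNA sensor Ddx58 by 0.74. Stat2 went from 1038 and 1324 to 798 and 912 (-0.46, adjusted p = 1.78e-04). Irf9, its partner, was at 1464 ± 216 and 1252 ± 44.7 (-0.22, adjusted p = 0.0572). Of 22 interferon-gamma targets that are not GTPases, 7 rose and 5 fell, with 2 and 6 after rescaling, 2 and 2 without PBS A, 6 and 1 without PBS B, 7 and 3 without dopamine A, and 5 and 1 in DESeq2. DESeq2 gave an adjusted p to 16 of the 22, so its counts are over those. Cd274, which encodes PD-L1, rose (0.53), as did the peptide transporter gene Tap2 (0.38) and the proteasome activator gene Psme1 (0.29). The MHC class I regulator Nlrc5 (-0.30) and Cxcl9 (-0.83) fell. The rest that fell, Cxcl11, Nos2 and Serping1, had 1 to 18 reads a library. The authors' DESeq2 table gave these genes no adjusted p.

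Partners of the GTPases were described from lists of their own. Their counts are read against 14.3% of all genes rising and 7% falling. Among abundant genes 48.7% rose and 8.36% fell. After rescaling 6.89% of all genes rose and 12.1% fell. GBPs with a CaaX end, Gbp2 and Gbp5 among the members, are anchored by prenylation, and of 6 genes of that machinery 4 rose. Zmpste24, a protease that trims CaaX proteins, went from 837 and 775 to 1146 and 1186 (0.53, adjusted p = 3.09e-06), and Rce1 (0.44), Fnta (0.36) and Icmt (0.35) also rose. In the authors' DESeq2 table Icmt did not pass (adjusted p = 0.0595). After rescaling 1 of the 6 passed, and without PBS A or without dopamine B 2 did. Of 13 genes for the conjugation of ATG8 proteins and ubiquitin adaptors, which steer IRGs and GBPs to vacuoles, 4 rose and 1 fell. The counts were 2 and 1 after rescaling, in edgeR with TMM and its filter, and without PBS A or dopamine A. Gabarapl1, an ATG8 protein, went from 200 and 217 to 489 and 525 (1.28), and the adaptor Sqstm1 from 1366 and 1472 to 2296 and 2544 (0.77). The ubiquitin ligase gene Trim21 fell (-0.38). Of 9 inflammasome and pyroptosis genes 1 passed, as lower: Nlrp3, at 11.9 and 11.5 with PBS and at 3.86 and 2.91 with dopamine, a few reads a library. Its call ended without any 1 of the 4 libraries, and DESeq2 gave it no adjusted p.

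Cells other than T cells also make GBPs and IRGs, and some of their markers moved with the treatment. Over all genes 14.3% rose and 7% fell. Macrophage and monocyte markers (7 of 8 in the table) summed to 202 to 222 with PBS and 95.2 to 95.7 with dopamine, and 4 of the 7 fell (2 without PBS B or dopamine B). B cell markers (5 of 5) summed to 126 to 160 and 340 to 346, and 3 of the 5 rose. Dendritic cell markers (6 of 6) summed to 110 to 120 and 102 to 116, and NK cell markers (4 of 5) to 17.6 to 54.4 and 29.1 to 32.4. Of the 6 dendritic cell markers 1 fell, and no NK cell marker passed. Basophil and mast cell markers (7 of 7) summed to 1741 to 2072 and 660 to 736, and 6 of the 7 fell. Neutrophil markers (5 of 6) summed to 294 to 322 and 62.1 to 80.2, and 3 of the 5 fell. Platelet and red cell markers (7 of 7) summed to 1573 to 1845 and 432 to 502, and 6 of the 7 fell. In DESeq2 these counts were 5 of 7, 1 of 1 and 6 of 6 markers with an adjusted p. Endothelial markers (5 of 5) summed to 1930 to 2082 and 1841 to 1967, nearly all of it Pecam1, which T cells also express. Each sum was below that of the helper T cell markers, and their part in the members' results was not tested.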

How the data were processed

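RNA-seq libraries of 4 samples were made with a kit for stranded mRNA, according to the labels. The submitters' processing notes name FastQC 0.11.2, TopHat2 2.0.13, HTSeq 0.6, DESeq2, R 3.6.2 and mm10. Whether counting used strand, and with which gene models, is not given in the sources used here. The deposited table holds the authors' normalized counts, a signal made by dividing reads by 1 size factor per library, per the file headers and the values. It also holds the authors' DESeq2 log2 fold change, Wald score and p-values. Of the values 100% were whole multiples of 1 read within a tolerance of 0.01, so reads were recovered. Libraries of a group differed beyond sampling noise, with a chi-square per degree of freedom of 2.37 for PBS and 3.43 for dopamine.

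The members and lists were chosen with earlier results of these data known, and 1 gene of interferon signalling and the count of its list are not reported here. The main test was limma-trend (limma 3.58.1, R 4.3.3), 2-sided, on log2(value + 1) of all 26207 genes without a filter. Limma drew variances towards a common trend with 42.4 prior degrees of freedom. As alternatives, edgeR 4.0.16 (TMM, filterByExpr, quasi-likelihood test) was run on the recovered reads, calling 5219 of 15329 genes, and so was DESeq2 1.42.0. Other alternatives were 2 scalings and no filter in edgeR, and in limma a pseudocount of 0.1, a minimum of 5 CPM, TMM scaling, rescaling on genes averaging 100 or more, a replicate block and leaving out each library. All members were named, as were up to 4 genes with the smallest p per list and fixed genes of interferon signalling; others were named after their values were seen. Exon lengths, positions and 50-base stretches came from GENCODE M21.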

Additional observations from a re-analysis of the deposited data

How the results depend on the processing

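Of the 10 members 9 passed in the reported fit (7 higher, 2 lower). Gbp2, Gbp4 and Gbp7 kept their call and direction under all 14 alternatives. Directions held for 9 members, and Irgm1 turned to -0.0146 with upper-quartile scaling in edgeR and to -0.0134 after rescaling on genes averaging 100 or more. Upper-quartile scaling left 5 members past the threshold (2 higher, 3 lower), edgeR with TMM and its filter 7 (4 and 3) and rescaling 6 (3 and 3). Among all genes 5577 passed, and 3261 did in DESeq2. Leaving out a library left 5 to 7 members, 2914 to 4299 of all genes and 32 to 38 of the other listed genes (49 in the reported fit). The lowest of each came without PBS A. Without dopamine B 3276 of all genes passed. With 1 library left in a group, that library is taken to vary like the others. Among all genes 3743 were higher and 1834 lower in the reported fit. TMM scaling in limma (3605 and 1939) and edgeR with TMM and no filter (3629 and 1908) were close to that. EdgeR with TMM and its filter on low counts called 2793 and 2426, with upper-quartile scaling 2013 and 3149, and rescaling in limma called 1806 and 3178. A minimum of 5 CPM left 3889 and 894. Same-numbered columns deviated together with a correlation of 0.214 over 8492 genes. With 2 pairs this does not show that the numbers pair the libraries. The replicate block gave 6999 calls among all genes and 9 among the members, and 61 among the other listed genes.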
